A study of Mus musculus with 4 samples.

Results

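CD45+ liver cells of wild-type (WT) mice treated with diethylnitrosamine (DEN) and a choline-deficient high-fat diet (CDHFD) were compared with those of young untreated WT mice by single-cell RNA sequencing. Of the series' 4 libraries, the comparison takes the library labelled WT, DEN and CDHFD and the library labelled WT with no treatment. It holds 18612 kept cells of the 36286 kept in the series, 8329 from the treated library and 10283 from the young one.

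All mice were female and on the C57BL/6 background. Treated pups received DEN at 25 mg/kg intraperitoneally on day 14, were weaned on day 21 onto a diet with 60% fat, and were taken at 36 weeks by the labels. The young mice received neither and were about 8 weeks old. Live CD45+ cells were sorted and captured with 10x Genomics 5′ v2 chemistry, and how many mice went into a library the labels do not say. Age, DEN and diet all differ between the libraries and cannot be told apart. With 1 library on each side, the differences have no replicate check.

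DEN is a carcinogen that hepatocytes activate, and a choline-deficient high-fat diet brings fat deposition and inflammation to the liver. The healthy mouse liver holds many innate-like T cells, among them natural killer T (NKT) cells that carry the transcription factor encoded by Zbtb16, besides NK cells, type 1 innate lymphoid cells (ILC1) and Kupffer cells. T cells that meet antigen over a long time carry inhibitory receptors such as those encoded by Pdcd1, Lag3 and Havcr2, while naive and central memory T cells carry Ccr7 and Tcf7.

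Cells with 600 to 6000 genes and at most 5% mitochondrial UMIs were kept, 8329 of 9120 in the treated library and 10283 of 10985 in the young one. The treated cells were deeper, with a median of 8210 UMIs and 2826 genes against 6782 UMIs and 2539 genes. Over all kept cells the T cell marker genes summed to 2825 counts per 1000000 UMIs (CPM) in the young library and 2951 in the treated one. Hepatocyte genes summed to 89.8 and 80.7 CPM, endothelial genes to 30.9 and 26.7, and stellate or fibroblast genes to 1.38 and 2.17. Both libraries thus carried a leukocyte profile with low levels of other liver cells, as the CD45 sort in the labels says.

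Lymphocytes make up most CD45+ cells of a healthy mouse liver, and monocytes and macrophages enter it in inflammation. Each kept cell was put in a class when it held at least 1 UMI of a single lineage gene among Cd3e for T cells, Cd79a for B cells, Ncr1 for NK cells and ILC1, Csf1r for monocytes and macrophages, and Flt3 for dendritic cells. Deeper cells pass into the class with 2 or more lineage genes more readily, so the shares were also taken with every cell thinned to 2000 UMIs, which left out 667 young and 540 treated cells.

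T cells were 46.3% of kept cells in the young library (95% interval 45.3 to 47.2) and 37.4% in the treated one (36.3 to 38.4), a difference of −8.89 percentage points (−10.3 to −7.47). These intervals, like all that follow, cover counting error only. The class leaves out cells with Cd3e beside another lineage gene. Young and treated cells with Cd3e and only Csf1r beside it were 2.40% and 9.62% of kept cells. Those with Ncr1 were 5.35% and 4.89%, and those with Cd79a 2.63% and 2.22%. Cells with 2 or more lineage genes, most of them with Cd3e, were 9.31 points higher in the treated library. The T cell difference is thus one of the exclusive class. It does not show that cells with Cd3e were fewer, since the share of all such cells was not taken. After thinning the T cell difference was −4.00 points, from 45.3% to 41.3%, less than 50% of the unthinned value. B cells went from 10.9% to 7.28%, a difference of −3.60 points (−4.41 to −2.77), and by thinned cells from 13.01% to 9.06%. Monocytes and macrophages were 1.65% (1.42 to 1.92) of the young and 6.20% (5.69 to 6.73) of the treated cells, 4.54 points higher, and 2.37% and 7.41% after thinning. This class too is exclusive. It leaves out the cells with Csf1r and only Cd3e beside it, at 2.40% and 9.62% more numerous than the class in both libraries. Those with Csf1r and only Flt3 were 1.51% and 2.09%. The share of all cells with Csf1r was not taken. The other 2 DEN-CDHFD libraries, from miR-146a-/- mice and from double knockout (DKO) mice that lack both miR-146a and Ccl5, held 14.1% and 20.2% of the exclusive monocyte and macrophage class.

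NK cells and ILC1 made up 15.4% and 16.4% of young and treated cells, a difference of 0.977 points whose interval (−0.0782 to 2.04) takes in 0, and 0.00621 points after thinning. The interval left out 0 with at most 4500 genes per cell, at 1.75 (0.612 to 2.91) points, and with at least 200, at 1.05 (0.00998 to 2.09). Dendritic cells were 1.94% and 2.08%, a difference of 0.132 points (−0.271 to 0.545). It was 0.714 points (0.162 to 1.28), an interval that leaves out 0, with a gate that also takes cells holding Csf1r beside Flt3, and −0.110 after thinning. The share of cells with 2 or more lineage genes went from 16.7% to 26.0%. Cells holding Cd3e and Csf1r and no other lineage gene numbered 247 in the young and 801 in the treated library, 2.40% and 9.62% of kept cells. Their median depths were 14886 and 17110 UMIs, above those of the T class at 6949 and 7184, and whether they were doublets, cells in contact or cells with free RNA was not tested.

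**Figure D1:**
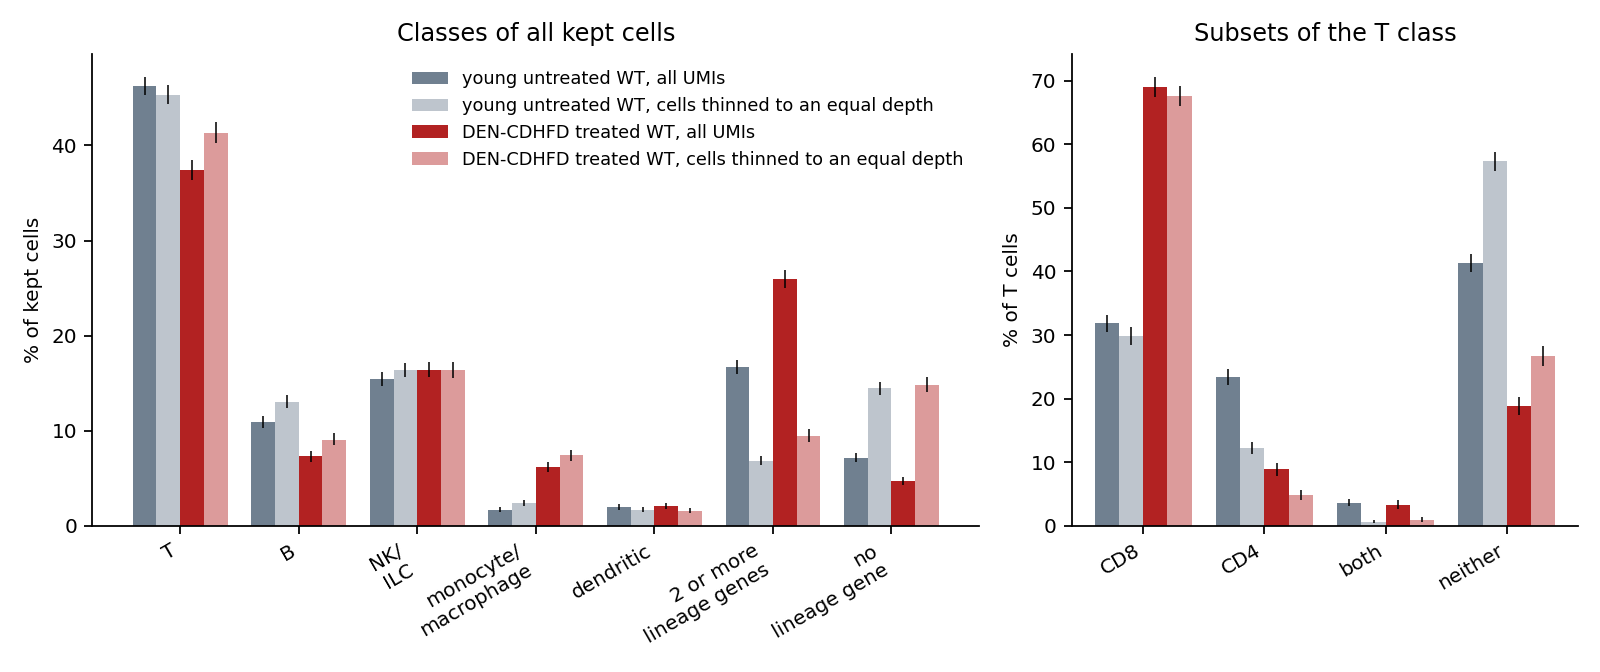
Percent of kept cells in each lineage class (left) and percent of T class cells holding CD8, CD4, both or neither transcripts (right), in the young and the treated library; bars give the share, whiskers exact 95% binomial intervals, dark bars all UMIs and pale bars cells thinned to 2000 UMIs. CD8 T cells stand at 31.8% in the young and 69.0% in the treated library.

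Among T cells, the division between the CD8 and CD4 lineages differed between the libraries, as the bars on the right of the plot of class shares show. Most naive T cells of the liver belong to one of these lineages, while some innate-like T cells carry neither transcript. CD8 cells, with Cd8a or Cd8b1 and no Cd4, were 31.8% (30.5 to 33.2) of young T cells and 69.0% (67.4 to 70.7) of treated ones, 37.2 points higher (35.1 to 39.3). Thinned cells gave 29.8% and 67.6%. CD4 cells went from 23.3% to 8.86%, a difference of −14.5 points. Thinned they went from 12.2% to 4.75%, −7.45 points, the treated share being 0.380 of the young one before thinning and 0.389 after. Cells with neither transcript went from 41.3% to 18.8%. In the miR-146a-/- and DKO libraries 67.6% and 66.9% of T cells were CD8 and 18.4% and 15.0% CD4.

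Zbtb16, the NKT transcription factor, had a UMI in 37.2% of young T cells and 6.23% of treated ones, and in 16.8% and 1.93% after thinning. B cells, taken as a class that should lack it, showed 3.13% and 0.330% at median depths of 5453 and 6426 UMIs. The share with Il4 went from 26.5% to 3.11% (12.2% to 1.40% thinned), against 1.34% and 0.165% of B cells. The regulatory T cell gene Foxp3 was found in 2.69% and 2.50% of T cells, 1.67% and 0.994% after thinning, beside 0.447% and 0.495% of B cells. Trdc, of γδ T cells, was in 4.29% and 2.79%, thinned 2.43% and 1.68%, with 0.179% and 0% in B cells.

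Summed over all kept cells, RNA levels mix the makeup of a library with expression inside its cells. Fewer cells of a type and less RNA per cell cannot be told apart in these sums. A gene was looked at when it reached 50 CPM in at least 1 of the 2 libraries and 20 UMIs in both together, and counted as higher or lower at a log2 ratio, treated over young, of at least 1 in size, called the limit from here on. Of 3572 genes looked at, 90 (2.52%) were higher and 23 (0.644%) lower in the treated library, with a median log2 ratio of −0.01. With genes of 10 CPM also looked at, 350 genes passed, and with the class levels of both libraries given equal weights, 55.

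The largest rise was that of Coch, which encodes the secreted protein cochlin, from 0.191 CPM in the young to 69.4 CPM in the treated library, 13 and 1377 cells (log2 ratio 8.46, 7.81 to 9.31). Macrophage and monocyte genes followed. Chil3 rose from 8.46 to 70.9 CPM, Hmox1 from 11.0 to 75.4 and C1qb from 42.0 to 199.9. Hp, Cd63 and Cxcl2 rose with them. Spp1 rose from 14.1 to 97.2 CPM, and of its 8176 treated UMIs 3893 lay in the T class and 788 in monocytes and macrophages. Of the 10 monocyte and macrophage markers, 7 were looked at and 6 were higher, their sum going from 963 to 2723 CPM. Pdcd1 and Gzmk, genes of T cells after antigen contact, rose from 24.7 to 144 and from 62.1 to 310.3 CPM.

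The falls were headed by Ighg2b, an immunoglobulin heavy chain gene, from 70.6 to 5.43 CPM, with 26.5% of its young UMIs in 1 cell. Mmp9 fell from 55.1 to 6.13 CPM, Zbtb16 from 74.1 to 13.9 and Cd40lg from 104 to 22.9, and Zfp683, Atp8a2, Kcnq5, Tmem64 and P2rx7 fell as well. Hbb-bs, a hemoglobin gene, fell from 172 to 65.0 CPM in sums, but its log2 ratio was −0.42 instead of −1.41 when each cell's CPM was averaged, a mean over cells. The 10 B cell markers summed to 1164 and 824 CPM, and the 12 neutrophil markers to 213 and 141, 1 of 3 looked at being lower. The most abundant transcripts, Gm42418, Tmsb4x, Cmss1, Actb and Cdk8, had log2 ratios between −0.32 for Cmss1 and 0.28 for Tmsb4x.

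T cells were compared next, at 4759 young and 3114 treated cells, since inhibitory receptors, cytotoxic genes and innate-like programs all sit in this class. CD8 cells weighed more in the treated sum, so part of a T class ratio can come from the subset shares given above. Of 3465 genes looked at, 69 (1.99%) were higher and 45 (1.3%) lower, and 307 passed with genes of 10 CPM also looked at. The median log2 ratio of all genes was 0.00.

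Genes of inhibitory receptors rose in treated T cells. Pdcd1, which encodes PD-1, was at 39.9 CPM (37.9 to 42.0) in the young and 306 CPM (299 to 313) in the treated library, a log2 ratio of 2.94. Lag3 rose from 27.2 to 289.9 CPM, Tigit from 67.5 to 409.6, Havcr2 from 4.31 to 108 and Ctla4 from 98.4 to 345, and in the plot of CPM by list the intervals of the libraries lie apart for all 5. Cd160, Entpd1 and Cd200r1 stayed below the limit, with log2 ratios of −0.87, 0.69 and 0.55. The 8 inhibitory receptor genes looked at had a median log2 ratio of 2.21, and 5 were higher.

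In single T cells, a UMI of Pdcd1 was present in 14.1% of the young and 50.4% of the treated library, 6.79% and 35.5% after thinning. B cells, at the depths given above, held it in 0.447% and 1.32%. Lag3 was found in 9.29% of young and 44.4% of treated T cells, thinned 4.38% and 30.2%, beside 1.70% and 2.31% of B cells. Proliferating cells can carry these genes too. Mki67, a gene of dividing cells, was in 8.78% and 16.7% of T cells, thinned 4.47% and 8.76%, and in 3.67% and 8.09% of B cells, which divide as well and are no clean background for it. The 10 cell cycle genes looked at had a median log2 ratio of 0.74 in T cells, none past the limit.

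The promoters of 3 inhibitory receptor genes are shown because NFAT and AP-1, factors downstream of the T cell receptor, have binding motifs that can be read in them; the genes were chosen after their values were seen. Each run is 300 bases of the mouse build GRCm38.p6 with RefSeq transcription starts, Pdcd1 at chr1:94052504-94052803 (minus strand), Tigit at chr16:43664135-43664434 (minus strand) and Havcr2 at chr11:46454681-46454980 (plus strand).
Pdcd1: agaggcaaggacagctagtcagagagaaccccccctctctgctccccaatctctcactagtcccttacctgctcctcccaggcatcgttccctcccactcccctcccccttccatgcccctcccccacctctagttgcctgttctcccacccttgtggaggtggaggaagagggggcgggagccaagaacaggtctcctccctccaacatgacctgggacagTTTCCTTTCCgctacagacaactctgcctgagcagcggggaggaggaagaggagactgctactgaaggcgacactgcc
Tigit: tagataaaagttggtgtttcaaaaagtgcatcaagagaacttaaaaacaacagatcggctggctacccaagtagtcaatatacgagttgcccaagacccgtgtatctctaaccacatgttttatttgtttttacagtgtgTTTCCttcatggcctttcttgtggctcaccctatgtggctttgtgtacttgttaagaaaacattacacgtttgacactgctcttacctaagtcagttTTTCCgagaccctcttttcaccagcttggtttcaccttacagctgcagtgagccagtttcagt
Havcr2: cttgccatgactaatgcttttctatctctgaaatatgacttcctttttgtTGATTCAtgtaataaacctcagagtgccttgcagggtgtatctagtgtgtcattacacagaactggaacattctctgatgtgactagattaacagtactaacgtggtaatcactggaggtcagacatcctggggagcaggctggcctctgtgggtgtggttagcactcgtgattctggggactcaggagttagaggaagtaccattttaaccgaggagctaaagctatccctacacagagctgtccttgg
Capitals mark the NFAT core GGAAA, read as TTTCC on the other strand, in Pdcd1 and Tigit (2 matches each), and the AP-1 motif TGANTCA in Havcr2 (1 match). Across the 32851 promoters of the same length, 61.3% held the NFAT core and 7.81% the AP-1 motif on either strand, so a match describes the sequence and no more.

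Cytotoxic and effector transcripts were mostly higher in the treated T cells. Gzma rose from 131 to 937 CPM, Gzmb from 363 to 1067, Gzmk from 112 to 690.2 and Prf1 from 53.9 to 144. The chemokine genes Ccl3, Ccl4 and Ccl5 went from 40.6, 221 and 6258 CPM to 445, 1905 and 22689. Ifng did not follow, at 236 CPM in the young and 172 in the treated library, and Fasl and Klrd1 had log2 ratios of 0.03 and 0.07. Of 14 effector genes looked at, 8 were higher and 0 lower, with a median log2 ratio of 1.29. Of the age-associated T cell genes, 5 of 6 were higher, Tox (212 to 495 CPM) and Eomes (56.6 to 152 CPM) among them, with Itga4 at a log2 ratio of 0.70 and a median of 1.64.

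Some of the genes with the largest rises in T cells were in few cells of the young library. Gcg, which encodes proglucagon, was at 0 in the young T cells and at 71.8 CPM in 62 treated ones, at least 872-fold higher, where the bound takes 3 counts as the floor. Coch was held by 6 of the young and 881 of the treated T cells, 0.126% and 28.3%, thinned 0.0459% and 18.4%. In B cells Coch was in 0% of the young and 0.660% of the treated library. Il10 rose from 2.03 to 71.7 CPM, Adgrg1 from 2.47 to 52.8 and Spp1 from 9.21 to 150.0, Spp1 in 33 and 220 cells. The miR-146a-/- and DKO libraries had 26.7 and 29.6 CPM of Coch and 24.2 and 23.6 CPM of Gcg in T cells.

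Genes of NKT-like cells were lower in the treated T cells. Zbtb16 fell from 110.5 to 15.2 CPM, Il4 from 95.9 to 10.3, Cd40lg from 187 to 46.3 and Klrb1c from 114 to 36.6, and Tmem176b had a log2 ratio of −1.25. Of 9 such genes looked at, 5 were lower, with a median log2 ratio of −1.25. In an alternative chosen after the data were seen, cells with a Zbtb16 UMI were left out, 1768 young and 194 treated. Then Cd40lg and Klrb1c stayed past the limit at −1.77 and −1.28, and Tmem176b moved to −0.54, while Zbtb16 itself was at 0 by that choice. Il4 had a ratio of −3.45 but was then under 50 CPM and no longer a gene looked at. Of the 69 higher and 45 lower genes of the T class 57 and 20 still passed, less than 50% of the lower ones. Mmp9, Gcnt2, Ckb, Zfp683, Socs2, Tmem64 and P2rx7 were the other large falls, from 92.2 to 10.0 CPM for Mmp9.

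Transcripts of macrophages also reached the T class. Csf1r was at 0 by the gate, and the other 9 monocyte and macrophage markers were detected at a sum of 41.2 CPM in the young and 206 in the treated T cells, led by Lyz2 (16.5 to 119 CPM). Lyz2 had a UMI in 7.73% and 26.2% of T cells and in 5.28% and 23.1% of B cells. Thinned cells were gated anew, so that the T class could take in cells that had lost Csf1r, and the shares of Lyz2 were then 4.29% and 16.4% in T cells and 3.20% and 8.78% in B cells. The B cell markers summed to 26.6 and 23.9 CPM in T cells. With cells of 2 or more macrophage UMIs left out, again chosen after the data were seen, Spp1 kept a log2 ratio of 4.01, Coch 9.02, Il10 4.92 and Pdcd1 3.06, while of the same 69 and 45 genes 55 and 41 still passed. MHC class II genes were higher in 4 of 5 looked at, Cd74 (159 to 574 CPM) among them. Without the cells holding macrophage UMIs none of them passed, with Cd74 at a log2 ratio of 0.09 instead of 1.86 and H2-Aa at 0.28 instead of 2.39.

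**Figure D2:**
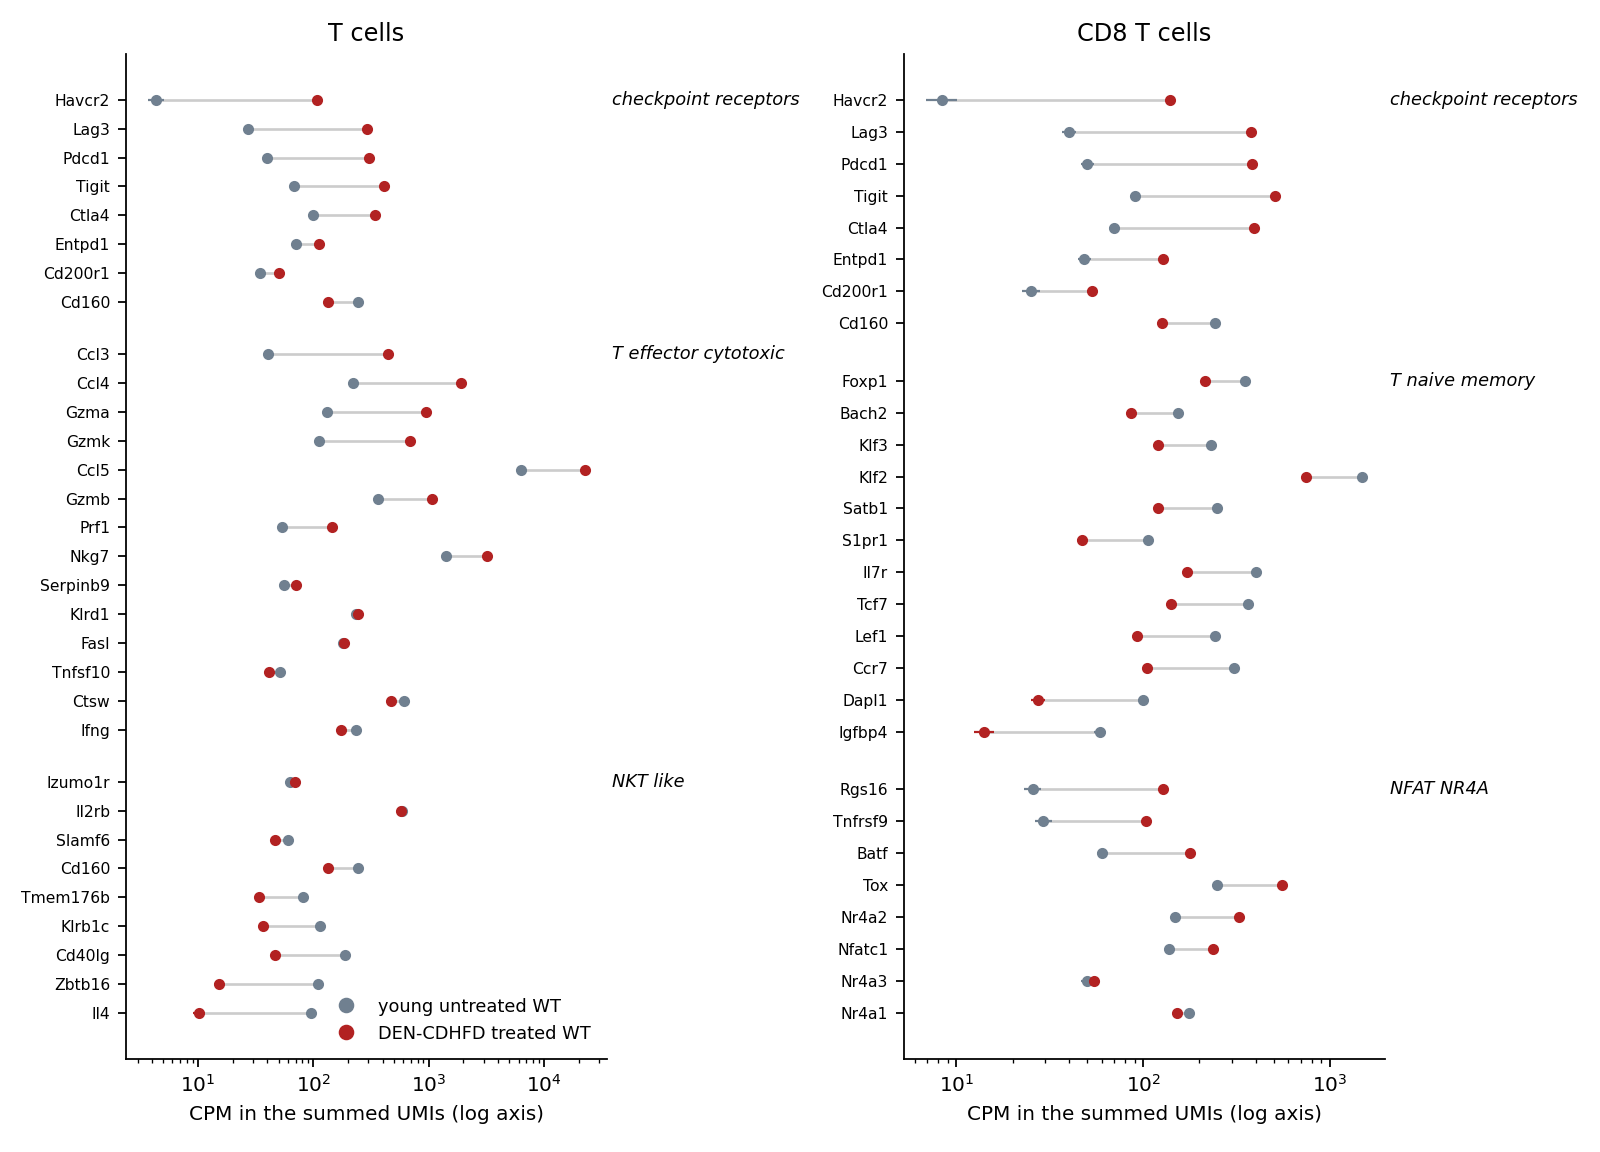
CPM of genes in T cells (inhibitory receptor, effector and NKT-like lists) and in CD8 T cells (inhibitory receptor, naive or memory, and NFAT or NR4A lists) on a log axis, 1 point per library with its 95% Poisson interval. In T cells Havcr2 stands at 4.31 CPM in the young and 108 in the treated library, and Il4 at 95.9 and 10.3.

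CD8 T cells kill infected and transformed cells, and under lasting antigen contact they pass from a naive or memory state toward one with inhibitory receptors. The 1515 young and 2150 treated CD8 cells had median depths of 7689 and 7320.5 UMIs. Of 3342 genes looked at, 95 (2.84%) were higher and 30 (0.898%) lower, with a median log2 ratio of 0.07. With genes of 10 CPM also looked at the count was 379. Without cells that held a UMI of any of 3 receptor segments described further on, 295 young and 977 treated, it was 48. Among these were 35 of the higher and 10 of the lower genes.

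Inhibitory receptor genes were higher in 7 of 8 looked at, with a median log2 ratio of 2.49. Pdcd1 rose from 50.3 to 382 CPM, Lag3 from 40.2 to 379, Tigit from 90.3 to 508, Havcr2 from 8.34 to 140.0 and Ctla4 from 70.1 to 392. Entpd1 and Cd200r1 rose too, while Cd160 had a log2 ratio of −0.94. Pdcd1 was found in 21.98% of young and 62.0% of treated CD8 cells, and in 11.6% and 46.2% after thinning, against the B cell shares above. Gzmk was in 36.7% and 74.3%, thinned 28.7% and 68.1%, and in 1.34% and 1.32% of B cells.

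Genes of naive and central memory cells moved the opposite way. Ccr7 fell from 307 to 106 CPM, Tcf7 from 365 to 140.5, Lef1 from 243 to 92.8 and Il7r from 404 to 172, with falls of S1pr1, Klf2, Satb1, Dapl1 and Igfbp4 beside them. Of 13 such genes looked at 10 were lower, with a median log2 ratio of −1.23. Klf2 and Satb1 ended below the limit, at −0.95 and −0.94, when cells with macrophage UMIs were left out. Without cells that held a UMI of Trbv1, Trbv16 or Trbv17, 3 genes of the list were lower. The log2 ratio of Tcf7 was then −0.88, of Lef1 −0.89 and of Il7r −0.70.

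Genes that NFAT and NR4A factors drive or encode were higher in part. Rgs16, Tnfrsf9, Batf, Tox and Nr4a2 had log2 ratios of 2.31, 1.82, 1.56, 1.15 and 1.14, 5 of 8 looked at, and the median was 1.15. Without the Trbv1, Trbv16 and Trbv17 cells, 2 remained, with Batf at 0.88, Tox at 0.73 and Nr4a2 at 0.73. As a mean over cells Tox was at 0.89. Effector genes were higher in 8 of 14, with Ccl5 (10566 to 28707 CPM) the most abundant, at a log2 ratio of 1.44 that was 0.76 without those cells. Cell cycle genes were higher in 5 of 11, Mki67, Top2a, Ccna2, Birc5 and Ube2c, with a median log2 ratio of 0.97.

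The largest rises in CD8 cells came from genes with few young UMIs. Gcg was at 0 in the young and 79.7 CPM in 52 treated cells, at least 344-fold higher. Its log2 ratio of 11.01 was 1.62 without the Trbv1, Trbv16 and Trbv17 cells. Coch rose from 0.463 to 206 CPM, Spp1 from 0.695 to 164, Il10 from 0.927 to 91.1, Neb from 1.47 to 54.0 and Tnfrsf4 from 3.94 to 71.1, and Adgrg1 and Penk were among the 10 largest rises. Without those same cells Coch was at 8.21, Il10 at 4.34, Spp1 at 4.89 and Penk at 1.12, all past the limit. Among the falls, Hbb-bs had 63.4% of its young and 94.7% of its treated UMIs in 1 cell each. Its log2 ratio of −1.89 was −4.66 without the cell that held most of a gene's UMIs in each library, the top cell. Zfp683, P2rx7, Actn1, Kcnq5, Cmah and Gm45552 fell as well, Cmah at −1.46 and −0.99 without the Trbv1, Trbv16 and Trbv17 cells. The B cell markers summed to 31.4 and 24.0 CPM, led by Cd79b, and the monocyte and macrophage markers to 43.3 and 215, led by Lyz2. With macrophage UMI cells left out, Spp1 was at 7.39 and Coch at 8.52.

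Coch and the inhibitory receptors met in the same treated CD8 cells. Of the 828 treated CD8 cells with a Coch UMI, 94.1% held Pdcd1, 90.1% Lag3 and 75.8% Havcr2. Of the 1322 with Coch at 0, 42.0% held Pdcd1, 36.4% Lag3 and 23.1% Havcr2. The young library had 333 CD8 cells with Pdcd1, and 0.901% of these held Coch, against 58.4% of the 1334 treated ones. Lag3 and Havcr2 were in 40.5% and 10.5% of the young cells with Pdcd1 and in 81.6% and 64.5% of the treated ones. No B cell share is given for Havcr2, so its background is not known here. The median depths of these Pdcd1 cells were 6583 and 7058 UMIs.

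T cells that descend from 1 cell share their receptor's variable segments, and a segment's share of cells rises where such a family grows. The segments were read from the gene counts, with no clonotype table, and the ones named were chosen after their values were seen. Among CD8 cells with a Trbv UMI, 1454 young and 2078 treated, Trbv17 was in 4.88% (3.83 to 6.12) of the young and 24.0% (22.1 to 25.9) of the treated cells. Trbv16 went from 6.05% to 20.5%, Trbv1 from 10.2% to 19.9% and Trbv5 from 5.16% to 11.5%, as the bars by segment show. Counted by UMIs, Trbv17 took 4.15% and 44.6%, but Trbv16 5.88% and 3.86%, the opposite direction to its share of cells, and Trbv5 1.44% and 1.73%. Trbv14, Trbv19 and Trbv3 were lower, at 3.03%, 5.53% and 5.73% of treated against 14.0%, 12.2% and 11.1% of young cells. Trbv13-2, the segment in most cells, was in 29.6% and 30.1%. A cell was counted for every segment of which it held a UMI, and no background share was taken. Of the 71 young and 498 treated CD8 cells with Trbv17, 6 and 109 also held Trbv16, and 27 and 126 held Trbv13-2. Whether a UMI came from the cell's own receptor was not tested.

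On the α chain, Trav8d-2 was in 2.82% of 1205 young and 26.8% of 1619 treated CD8 cells with a Trav UMI, and in 0% of the miR-146a-/- and 0% of the DKO cells. Trav16 went from 5.06% to 22.4% and Trav13-3 from 0.498% to 17.4%, while Trav12-2 fell from 14.4% to 2.90%. Treated cells with a Trbv17 UMI held Coch in 72.1% and Pdcd1 in 89.6%, and those without it held Coch in 28.4% and Pdcd1 in 53.8%. How many mice were pooled is unknown, and clonal growth was not tested.

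**Figure D3:**
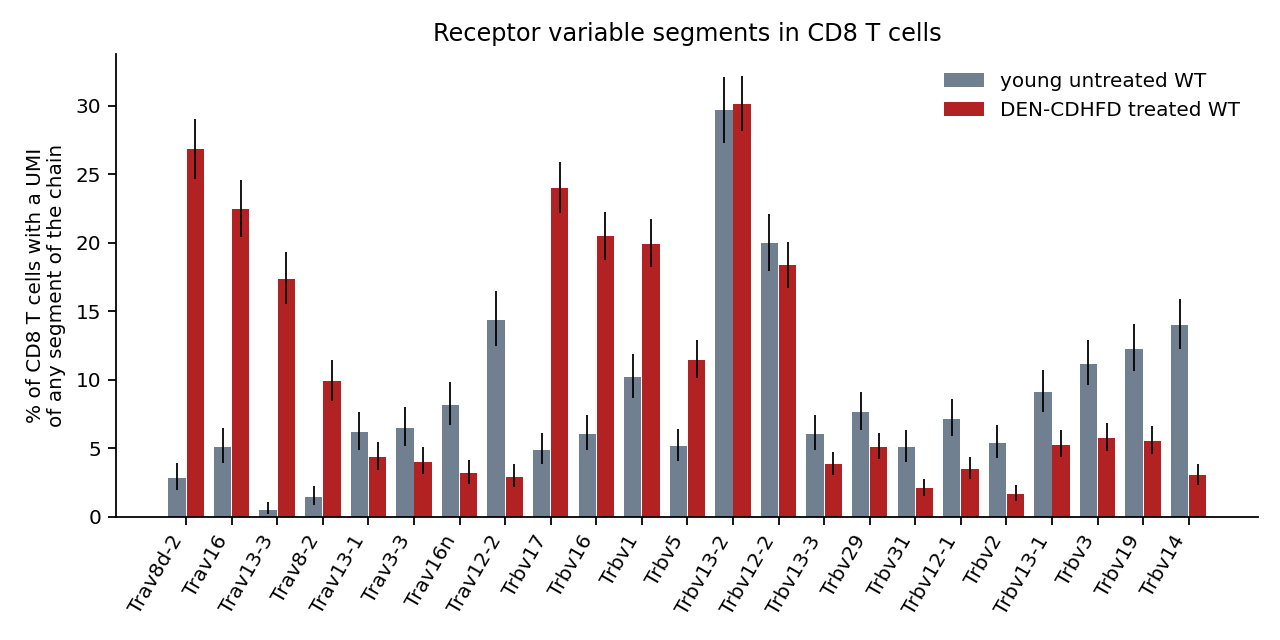
Percent of CD8 T cells with a UMI of any segment of the same chain that held a given Trav or Trbv segment, for segments in at least 5% of the cells of either library; bars are the young and the treated library and whiskers exact 95% binomial intervals. Trbv17 stands at 4.88% and 24.0%, Trav8d-2 at 2.82% and 26.8%.

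CD4 T cells take in helper cells, regulatory cells and many of the liver's NKT cells. The treated library had 276 of them and the young one 1111, so single cells weigh more in the treated sums. Of 3588 genes looked at, 47 (1.31%) were higher and 43 (1.2%) lower in the treated library, 341 in all with genes of 10 CPM also looked at. The balance turned to 38 higher and 53 lower with library factors from edgeR's trimmed mean method (TMM) and to 33 and 50 without top cells. It was 51 and 52 as means over cells and 46 and 47 with a mitochondrial limit of 10%. With cells of 2 or more macrophage UMIs left out, 28 genes were higher and 32 lower. Among them were 24 of the 47 higher and 29 of the 43 lower genes. The median log2 ratio was 0.03.

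Some NKT-like genes fell here too. Zbtb16 went from 127 to 32.3 CPM, Il4 from 155 to 32.3 and Klrb1c from 113 to 24.3. Of 9 such genes looked at 4 were lower, with a median log2 ratio of −0.48. Zbtb16 had a UMI in 42.7% of young and 11.2% of treated CD4 cells, thinned 18.0% and 4.58%, against the B cell shares given for T cells. Regulatory T cell genes mostly stayed below the limit. Foxp3, at 35.7 and 64.5 CPM, stayed below the limit at a log2 ratio of 0.86, and Ctla4 and Tnfrsf4 passed it at 1.22 and 1.46, 2 of 9 looked at with a median of 0.86. Foxp3 was in 5.67% and 9.78% of CD4 cells, and in 3.57% (2.16 to 5.52) and 4.58% (1.86 to 9.20) after thinning.

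Inhibitory receptor genes were higher in 4 of 7, with Pdcd1 at a log2 ratio of 1.26, Lag3 at 1.24 and Tigit at 1.29, and Cd160 fell at −1.24. The rises of Gcg (7 treated cells, 0 young, at least 244-fold), Spp1, Gm2663 and Penk leaned on single cells, which held 43.5%, 46.9%, 59.7% and 62.2% of the treated UMIs. Without top cells all 4 stayed past the limit, Gcg at 9.70, Gm2663 at 5.84 and Penk at 2.82. Gzmk rose from 51.0 to 277 CPM across 108 and 79 cells. MHC class II genes passed the limit in 5 of 5, but without cells holding macrophage UMIs none did, with H2-Aa, H2-Ab1 and H2-Eb1 at log2 ratios of 0.71, 0.84 and 0.47 and Cd74 close to the limit at 0.99. Lyz2 and Apoe also rose, at 2.40 and 2.69. Falls besides the NKT-like genes were Gcnt2, Mmp9, AW011738, Gm36723, Kcnq5 and Gm15494, while that of Hbb-bs came from 1 young cell and was −0.38 without it.

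NK cells mature from a CD27-high toward a CD11b-high state with more cytotoxic granules, and ILC1 are their resident relatives in the liver. The Ncr1 gate holds both, 1586 young and 1366 treated cells. Of 3626 genes looked at, 25 (0.689%) were higher and 19 (0.524%) lower in the treated library, or 178 with genes of 10 CPM also looked at, at a median log2 ratio of −0.03.

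Genes of mature NK cells fell. Itgam, which encodes CD11b, was at 179.5 CPM (172 to 188) in the young and 69.5 (64.8 to 74.4) in the treated library. S1pr5 fell from 195 to 66.2 CPM, Cma1 from 181 to 66.6, Klrg1 from 196 to 82.2, Prf1 from 904 to 435 and Gzma from 7469 to 3677, 9 of 14 maturation genes being lower with Itgam, Zeb2, Klra8 and Klra9 counted in. Prf1 and Zeb2 lay near the limit, with log2 ratios of −1.06 and −1.03 that were −0.99 and −0.97 as means over cells. Cd27 had a log2 ratio of 0.30 and Gzmb −0.72. Itgam was found in 43.9% of young and 25.4% of treated cells, thinned 25.2% and 11.8%, beside 3.04% and 4.95% of B cells. Cma1 was in 35.1% and 15.7%, thinned 23.1% and 9.51%, and in 0.179% and 0% of B cells. The treated cells were the deeper ones, with medians of 6530 and 8048 UMIs in the young and treated library.

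None of the 12 ILC1 genes passed the limit, near the share of all genes looked at, 0.689% higher and 0.524% lower. Their median log2 ratio was 0.27, with Ltb, Tcf7 and Xcl1 at 0.86, 0.83 and 0.65 and Cd3g at −0.86. Cell cycle genes were higher in 5 of 9 looked at, among them Mki67 (40.1 to 114 CPM), Top2a (44.7 to 125 CPM), Ube2c and Rrm2. The count was 2 as means over cells or with at most 4500 genes per cell, and 11 with genes of 10 CPM also looked at. Mki67 was in 4.85% of young and 10.9% of treated cells, thinned 2.48% and 5.50%, beside the B cell shares given above. Gzmc rose from 106 to 483 CPM, Dscam from 14.6 to 103 and Ccdc184 from 4.51 to 54.6. Cd83, Pclaf and Cks1b rose too, while Atp8a2, Serpinb9b, Kcnj8 and Ly6c2 fell. The fall of Hbb-bs, log2 ratio −8.13, was −4.92 without the top cell, which held 92.1% of its young UMIs. T cell markers other than Cd3e summed to 801 and 722 CPM, led by Cd247, and monocyte and macrophage markers to 24.7 and 58.3, led by Lyz2, and their part in the result was not tested.

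Resident Kupffer cells, monocytes from the blood and macrophages that take up lipid share the Csf1r gate. It held 170 young and 516 treated cells, so the young sums are the less exact ones. Of 3362 genes looked at, 43 (1.28%) were higher and 24 (0.714%) lower. As means over cells 112 genes passed, 49 higher and 63 lower, and with genes of 10 CPM also looked at 298, 117 higher and 181 lower, so that most were then lower. It went the other way with TMM factors, 55 higher and 20 lower, and without the top cell of each gene, 53 and 13. The median log2 ratio was −0.01.

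Some genes of lipid-associated and Kupffer-like macrophages rose in this class. Hmox1, which encodes a heme-degrading enzyme, was at 95.7 CPM (81.3 to 112) in the young and 353 (337 to 369) in the treated library, and Nr1h3 rose from 69.5 to 193 CPM. Spp1 rose from 46.3 to 140.2 CPM and Cd63 from 64.0 to 182, with 48.7% of the young Spp1 UMIs in 1 cell and a log2 ratio of 2.21 without top cells instead of 1.59. Gpnmb lay at 1.02, with 51.9% of its young UMIs in 1 cell, and at 0.95 with a prior of 5 counts. Of 16 lipid-associated genes looked at 3 were higher, with a median log2 ratio of 0.68. That number was 6 with TMM factors or without top cells and 5 as means over cells, and 2 with a prior of 5 counts or with 2 UMIs of Csf1r asked for. Of the Kupffer genes 2 of 6 were higher, C1qa had a log2 ratio of 0.25, and Clec4f was in 3 young and 10 treated cells.

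Hmox1 had a UMI in 37.1% of young and 59.5% of treated cells of the class, thinned 13.2% and 24.8%, with 0.716% and 2.64% in B cells. Spp1 was in 4.12% and 14.1%, thinned 2.63% and 6.93%, and in 0.358% and 1.32% of B cells. Monocyte genes were mixed. Chil3 and Thbs1 rose at log2 ratios of 1.28 and 1.15, among 12 classical monocyte genes looked at, and the patrolling monocyte gene Cd300e fell from 90.8 to 26.3 CPM, the 1 lower of 12 such genes with a median of −0.47. Slpi, Sod2 and Rgl1 rose, Slpi at 1.49 in sums and 0.60 as a mean over cells. Kcnq5, Cd300ld3, Flt1, Cd209a, Skint3 and S1pr5 fell.

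Marker genes listed for other cells were detected in the monocyte and macrophage class. The 12 neutrophil markers summed to 1471 CPM in the young and 448 in the treated library, with Ngp, Camp and Ltf at 0 in both, and S100a9 and S100a8 fell at −1.89 and −2.13. S100a9 rested on 7 young and 21 treated cells, 1 of the young holding 49.7% of its UMIs, and ended below the limit at −0.79 when 2 UMIs of Csf1r were asked for. The hemoglobin genes Hbb-bs, Hba-a1 and Hba-a2 stood at 165, 87.7 and 62.6 CPM in the treated library. There 1 cell held 99.6% of the UMIs of Hbb-bs, a gene at 0 in the young library, and without the top cells Hba-a2 was at 0.55. T cell markers summed to 81.7 and 83.1 CPM and hepatocyte markers to 237 and 186, led by Trf. Whether these transcripts came from other cells or from the class itself was not tested, nor was their part in the result.

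Dendritic cells divide into cDC1, cDC2 and plasmacytoid cells (pDC), and cells of either conventional kind can enter a mature state with Ccr7, Fscn1 and Ccl22 in which they travel to lymph nodes. The Flt3 gate held 200 young and 173 treated cells. The class had the largest share of genes past the limit, 156 (4.57%) higher and 44 (1.29%) lower of 3417 looked at, or 593 with genes of 10 CPM also looked at. The median log2 ratio was 0.00. Few cells stand behind these sums, and of the higher genes 3 had over 50% of their UMIs in 1 cell.

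Genes of mature dendritic cells rose. Ccr7 rose from 225 to 1120.0 CPM, Fscn1 from 131 to 806, Ccl22 from 39.7 to 259 and Socs2 from 26.8 to 124, and Cacnb3, Il4i1, Relb, Marcksl1 and Tbc1d4 rose too, so that 9 of 10 looked at were higher. Their median log2 ratio was 2.10, Cd200 had 0.34, and the plot of innate cell genes sets both libraries beside each other. Fscn1 was in 5% of young and 22.5% of treated dendritic cells, thinned 1.25% and 19.0%, beside 0.984% and 4.62% of B cells. Ccr7 was in 11% and 30.1%, thinned 5% and 21.5%, but B cells express it, in 75.6% and 72.1%. Il12b rose from 34.7 to 427 CPM in 6 and 29 cells, a log2 ratio of 3.62 that was 5.48 without top cells, since 1 cell held 78.2% of its young UMIs. Mreg rose from 18.9 to 186 CPM, Zmynd15 from 28.4 to 223 and Gclc from 14.5 to 145, with Scin, Lad1, Adcy6 and Stat4 among the largest rises.

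Genes of the dendritic cell subtypes mostly stayed below the limit. Of 8 cDC1 genes 3 were lower, Xcr1, Clec9a and Tlr3 at log2 ratios of −1.07, −1.03 and −1.08. Clec9a was at −0.98 with TMM factors, and Tlr3 at −0.94 with 2 UMIs of Flt3 asked for. Xcr1 was in 43% and 29.5% of young and treated cells, thinned 27.5% and 13.2%, and B cells held it in 0.716% and 0.165%. No pDC gene passed among 10, with a median log2 ratio of −0.64, and 1 did as means over cells, with at most 4500 genes per cell or without top cells. Siglech was in 51.5% and 34.1% of cells, thinned 25.6% and 18.2%, and in 0.447% and 0.330% of B cells. None of 5 cDC2 genes passed either, where 4.57% of all genes looked at were higher and 1.29% lower. Among the largest falls were those of Ctla2b, Qpct, Gm34084, Itgae, Treml4, Pianp, Clnk, Rtl8b and Cd209d, with Itgae (145 to 35.3 CPM). S100a9, at 0 in the young library, had 57.4 CPM from 1 treated cell, and a log2 ratio of 0.13 without it. Monocyte and macrophage markers summed to 947 and 763 CPM, led by Cybb, and B cell markers to 39.7 and 59.5, led by Cd79b, and their part in the result was not tested.

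**Figure D4:**
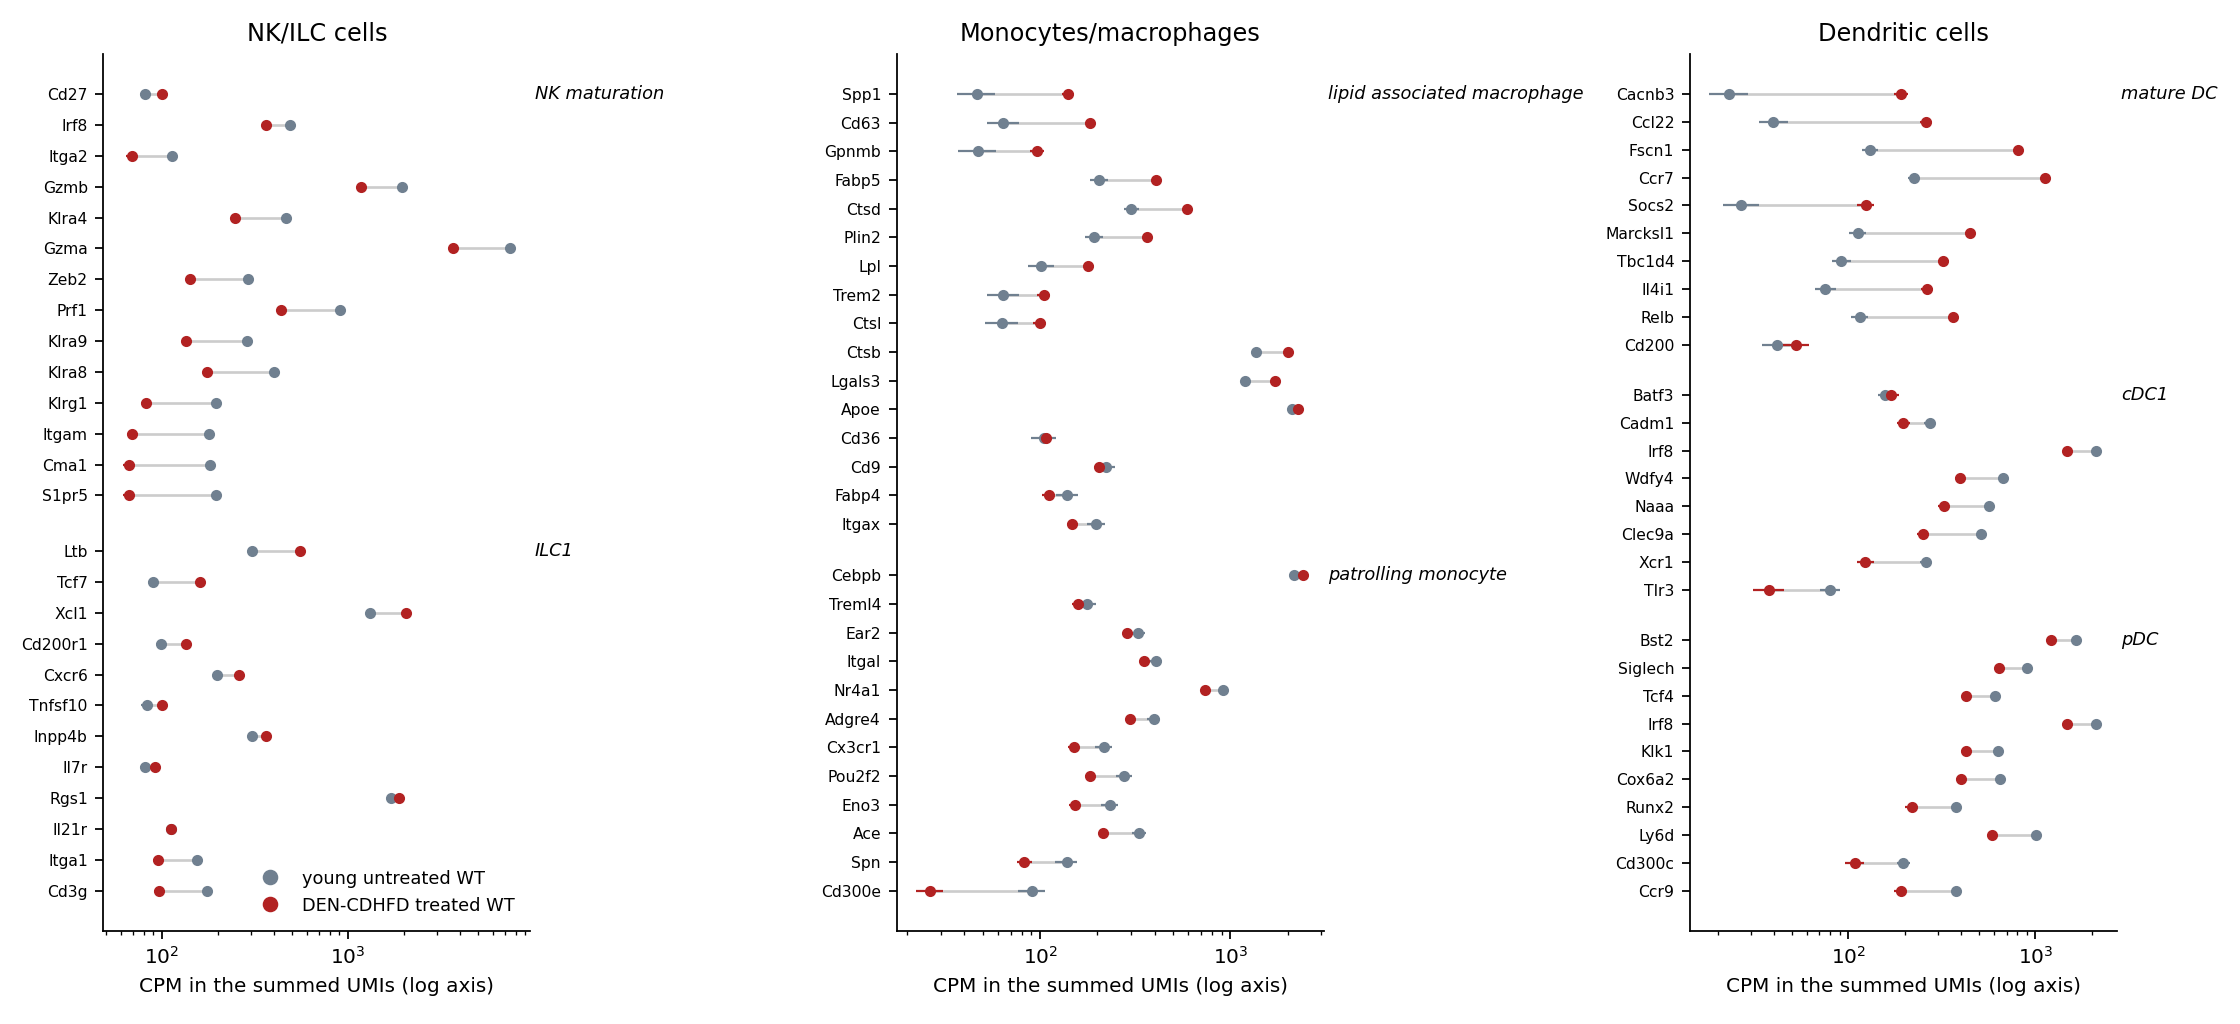
CPM of genes in NK cells and ILC1 (maturation and ILC1 lists), monocytes and macrophages (lipid-associated and patrolling lists) and dendritic cells (mature, cDC1 and pDC lists) on a log axis, 1 point per library with its 95% Poisson interval. Fscn1 in dendritic cells stands at 131 CPM in the young and 806 in the treated library, Itgam in NK cells and ILC1 at 179.5 and 69.5.

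B cells showed the fewest differences. Naive follicular B cells carry Ighm and Ighd, and switched immunoglobulin transcripts or Jchain mark cells after activation. In 1118 young and 606 treated cells, 10 (0.329%) of 3036 genes looked at were higher and 5 (0.165%) lower, or 111 with genes of 10 CPM also looked at, at a median log2 ratio of 0.06. None of 10 naive or follicular genes passed (median log2 ratio −0.31), and Ighd was in 71.0% and 63.0% of cells, thinned 40.0% and 34.0%, against 0.694% and 1.39% of NK cells and ILC1. Apoe rose from 284 to 739 CPM, Il9r from 33.8 to 98.1, Sox5 from 18.0 to 60.0, Cfp from 19.9 to 82.7 and Rgs1 from 74.0 to 184, and Mki67, Top2a, Fcer1g and Rassf4 rose as well. Lyz2 rose from 12.2 to 56.2 CPM, and the monocyte and macrophage markers other than Csf1r summed to 335 and 401 CPM, led by Cybb, with no test of their part in the result.

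Of the falls among B cells, those of immunoglobulin genes rested on few cells. For Ighg2b 1 cell held 77.6% of the young UMIs, and its log2 ratio of −3.12 was −1.13 without top cells and −0.99 as a mean over cells. Ighg1 lay at −1.03, but at 3.78, the opposite direction, without top cells, 1 young cell holding 97.3% of its UMIs. Jchain, at 4427 and 2196 CPM, was at −0.26 instead of −1.01 as a mean over cells, and was in 6.17% and 6.11% of cells, thinned 4.64% and 5.95%, beside 4.22% and 2.86% of NK cells and ILC1. Hspa1b and Skap1, at −1.07 and −1.25 in sums, were at −0.99 and −0.71 as means over cells, and no gene was lower by that measure. As means over cells 17 genes were higher, with 5 of the 10 rises in sums among them. Rassf4 among the rises was at 0.99 by that measure and at 0.93 with at most 4500 genes per cell.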

How the data were processed

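The deposited values were UMI counts per gene and cell, which the authors made with Cell Ranger 7.0.1 on mm10 by the labels and matrix headers. The labels do not say if intronic reads count. Of 20105 deposited cells, 18612 were kept. No doublet caller was run, and the upper limit on genes and the exclusive lineage gates took its place. The libraries share 131 cell barcodes, 1.44% of the smaller. Kept cells held 83882711 UMIs (young) and 84158257 (treated).

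UMIs were summed per library and class and scaled to CPM, and log2 ratios took a prior of 0.5 counts. CPM have exact Poisson intervals, ratios exact conditional binomial intervals, shares exact binomial intervals and differences of shares Newcombe's, all at 95%. Mitochondrial, ribosomal protein and receptor segment genes were left out of the genes looked at. With 1 library per group no test was made. The 8 comparisons took all kept cells, the 5 classes, and CD8 and CD4 T cells. Genes were named by rule, namely the 10 largest rises and falls of each comparison, members of 40 gene lists, the 5 lineage genes and the 5 most abundant genes of a class. Of the genes that these rules name and the totals count, 3 are not reported here by name. The lists were chosen with earlier results from these data known. Alternatives covered scale, weighting, thresholds, gates, cell filters and depth (thinning without replacement, seed 0), and 4 were added after the data were seen. Python 3.11.15, numpy 2.4.6, scipy 1.17.1, pandas 2.3.3, matplotlib 3.10.9, R 4.3.3 and edgeR 4.0.16 (TMM factors only) were used, and the code was checked on simulated data.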

Additional observations from a re-analysis of the deposited data

Results flagged for a closer look

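Some genes passed the limit in opposite directions in separate classes, and these differences between cell types were not tested. Log2 ratios in T cells exceeded those in NK cells and ILC1 by 2.19 for Zeb2, 2.47 for Prf1 and 3.86 for Gzma, all higher in treated T cells and lower in treated NK cells and ILC1. As means over cells, Zeb2 and Prf1 in NK cells and ILC1 ended below the limit, at −0.97 and −0.99. Against dendritic cells, the T cell ratio differed by 4.93 for Ccl3, higher in T cells and lower in dendritic cells, though 1 cell held 37.6% of the young dendritic UMIs. It differed by −3.20 for Tmem176b and −4.04 for Socs2, both lower in T cells and higher in dendritic cells. Without Zbtb16 cells, Tmem176b in T cells ended below the limit at −0.54.

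Receptor segments of the treated CD8 T cells stand out in gene counts on which the series' text gives no result. Of treated CD8 cells with a UMI of the chain, 26.8% held Trav8d-2, 17.4% Trav13-3, 22.4% Trav16, 19.9% Trbv1, 11.5% Trbv5, 20.5% Trbv16 and 24.0% Trbv17, each more than in the young library. By UMIs of the chain, though, Trbv16 went from 5.88% to 3.86% and Trbv5 from 1.44% to 1.73%. No background share was taken for segments, and a cell could hold UMIs of more than 1 of them. The differences from the young library were not tested.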

How the results depend on the processing

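No paired analysis was possible because each group has 1 library, and none could be left out. Of 195 named changes past the limit, 194 stayed past it with TMM factors, 183 as means over cells and 191 with at most 4500 genes per cell. Many of these were named as the largest changes, so they do not stand for all passing genes. As means over cells, 76 of the 90 higher and 18 of the 23 lower genes stayed in all kept cells. In T cells 65 of 69 and 44 of 45 did, and in dendritic cells 117 of 156 and 32 of 44. Alternatives added after the data were seen left 191 of 195 without the top cell of each gene and 78 of 83 without cells with macrophage UMIs. They left 28 of 30 without Zbtb16 cells and 21 of 33 without Trbv1, Trbv16 or Trbv17 cells. Zbtb16, 1 of the 2 lost without Zbtb16 cells, was at 0 by that filter. Il4 is among the 28 by its ratio, though it was then under 50 CPM. Only Ighg1 in B cells reversed, to 3.78 without its top cell.

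The T cell difference was −7.17 points with at most 4500 genes, −7.28 with 2 lineage UMIs and −4.00 thinned. No alternative took the share of all cells with Cd3e, whatever other lineage gene they held, so none shows that such cells were fewer. Cells with Cd3e and Csf1r alone went from 2.40% to 9.62%. The difference of monocytes and macrophages was 3.95 with 2 lineage UMIs, that of dendritic cells 0.714 with Csf1r let in, and that of CD4 cells −7.45 thinned. With genes of 10 CPM also looked at, 350 passed in all kept cells, 307 in T, 111 in B, 178 in NK and ILC1, 298 in monocytes and macrophages, 593 in dendritic, 379 in CD8 and 341 in CD4 cells. Equal class weights gave 55 in all kept cells (36 and 13 of the same higher and lower genes), means over cells gave 112 in monocytes and macrophages, and 48 passed in CD8 cells without the Trbv cells. Counts of list genes moved to 2 for NKT-like genes without Zbtb16 cells, where Zbtb16 was at 0 by the filter and Il4, then under 50 CPM, was not counted, to 3 for naive or memory and 2 for NFAT or NR4A genes without the Trbv cells, and to 2, 11 and 2 for NK cell cycle genes (means over cells, 10 CPM, 4500 genes). Lipid-associated genes numbered 6 with TMM factors, 5 as means over cells, 6 without top cells and 2 with a prior of 5 counts or 2 lineage UMIs, and pDC genes 1 as means over cells, with 4500 genes and without top cells. The cause was not tested.

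The percentage of passing genes that were higher moved by over 10 points from 79.6 to 69.1 in all kept cells (equal weights), from 66.7 to 100 and 80.2 in B cells (means over cells, 10 CPM), and from 56.8 to 67.4 in NK cells and ILC1 (10 CPM). It moved from 64.2 to 43.8, 39.3 and 80.3 in monocytes and macrophages (means over cells, 10 CPM, no top cell), and from 52.2 to 41.8 and 39.8 in CD4 cells (TMM factors, no top cell). TMM factors moved log2 ratios by at most 0.0765.

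Classes of few cells have the highest floors. A gene at 0 in 170 young monocytes and macrophages or 276 treated CD4 cells could be present below the floor of 3 counts, 1.83 and 1.33 CPM, and shares of cells with a UMI depend on depth in both libraries.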

Other observations

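In T cells none of 12 interferon-stimulated genes passed the limit, with a median log2 ratio of −0.15. Of all genes looked at in T cells 1.99% were higher and 1.3% lower, so a list of 12 with none past the limit lies near that share. It says little of these genes, and the same holds for the MHC class I and chemokine receptor genes below. In monocytes and macrophages their median was 0.12, which does not show that single members were level. MHC class I genes passed nowhere, with 3262 and 3198 CPM of B2m in T cells and 2436 and 2985 in dendritic cells. Chemokine receptor genes of T cells stayed below the limit, Cxcr6 at 548 and 463 CPM and Cxcr3 at 312 and 215. Residency genes were split, Prdm1 higher at 1.61 and Itga1 lower at −1.27. Stress genes of T cells mostly stayed below the limit, the lower ones being Jun, Hspa1a and Hspa1b at −1.19, −1.21 and −1.43, 3 of 15 looked at (median log2 ratio −0.30).

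In monocytes and macrophages, genes of inflammatory products went both ways. Cxcl9 (45.1 to 106 CPM), Cxcl2 (177 to 367 CPM) and Ccl4 (153 to 367 CPM) rose, Ccl2 (56.7 to 26.5 CPM) fell, and Il1b had 1118 and 720.1 CPM. Of 12 such genes 3 were higher and 1 lower. In dendritic cells Ccl5 rose from 306 to 1765 CPM, and Serpinb9 had a log2 ratio of 1.90. T cells held more Ccl5 than this in both libraries, by the levels given above. Whether T cell RNA reached the dendritic class was not tested.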
